A study of Mus musculus with 4 samples.

Results

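Genes that mark endothelial cells, the cells that line blood and lymph vessels, were read on 4 expression arrays labelled as N2a cells, a mouse neuroblastoma line. The genes are 3 receptors for vascular endothelial growth factor (Kdr, Flt1 and Flt4), both Tie receptors (Tek and Tie1), the co-receptor Eng, and the surface or secreted markers Emcn, Pecam1, Vwf and Cd34. They were taken by gene name from the array annotation, with every target (a group of up to 3 probes for 1 transcript) that carries the name. This gave 9 genes with 22 targets, of 24171 named genes and 44170 targets in all. Flt4 was not analysed here. The list was drawn up with the values of this comparison in view, so its levels and changes are given as a description, without a test.

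By the labels, 2 arrays were of N2a cells transfected with a scramble siRNA and labelled control. The other 2 were of N2a cells transfected with an siRNA against Men1 and labelled Men1 knockdown. Men1 encodes menin, a scaffold protein of histone methyltransferase complexes. Neither the dose, the time after transfection nor the number of cultures is stated in the labels, so the spread between arrays of a group may be technical.

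Endothelial cells take up growth and survival signals through receptor tyrosine kinases. VEGF ligands act on the receptors encoded by Kdr, Flt1 and Flt4, and angiopoietins act on Tek, with Tie1 as its partner. Endoglin, the product of Eng, presents ligands of the BMP family to the receptor Acvrl1, and many endothelial genes are known to be driven by ETS family transcription factors. A neuroblastoma line is not an endothelial cell, and Cd34, Pecam1 and Vwf are also known from blood progenitors, leukocytes or platelets.

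Promoter windows are shown here because these genes were low together on the same arrays. RefSeq (GRCm38.p6) gave a window of 300 bases, from 250 before to 50 after the transcription start, for 7 of the 9 measured genes; Pecam1 and Vwf had no entry. Each window was searched on both strands for AGGAAG as well as for CGGAAG, which are forms of the GGAA core that ETS factors bind, and for GATAA, the core of GATA sites. Either GGAA form was found in 5 of the 7 windows, against 46.5% of all 32851 windows of the same length. AGGAAG alone was in 5 of 7 (35.4% of all windows), CGGAAG in 1 of 7 (16.9%) and GATAA in 3 of 7 (25.4%). The windows of Kdr and Tek held neither searched form. Both hold the GGAA core itself, which was not counted. The 4 windows below belong to Cd34, Eng and Flt1, whose fold or bound at the brightest target was highest (bounds do not rank the changes), and to Tie1, whose window held both forms. Each runs 5′ to 3′ on the gene's strand, and capitals mark either GGAA form on either strand.
Cd34 (chr1:194938571-194938870, plus strand): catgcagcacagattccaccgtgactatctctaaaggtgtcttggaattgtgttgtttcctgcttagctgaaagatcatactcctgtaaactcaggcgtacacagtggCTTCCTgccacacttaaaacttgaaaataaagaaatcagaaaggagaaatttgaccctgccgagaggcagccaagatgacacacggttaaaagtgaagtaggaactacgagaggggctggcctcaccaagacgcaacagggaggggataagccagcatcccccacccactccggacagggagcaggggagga
Eng (chr2:32646345-32646644, plus strand): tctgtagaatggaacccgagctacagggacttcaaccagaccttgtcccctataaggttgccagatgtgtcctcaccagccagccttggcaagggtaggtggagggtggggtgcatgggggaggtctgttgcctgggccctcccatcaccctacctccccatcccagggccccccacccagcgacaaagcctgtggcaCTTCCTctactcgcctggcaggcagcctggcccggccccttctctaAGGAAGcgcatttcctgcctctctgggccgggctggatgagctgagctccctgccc
Flt1 (chr5:147725962-147726261, minus strand): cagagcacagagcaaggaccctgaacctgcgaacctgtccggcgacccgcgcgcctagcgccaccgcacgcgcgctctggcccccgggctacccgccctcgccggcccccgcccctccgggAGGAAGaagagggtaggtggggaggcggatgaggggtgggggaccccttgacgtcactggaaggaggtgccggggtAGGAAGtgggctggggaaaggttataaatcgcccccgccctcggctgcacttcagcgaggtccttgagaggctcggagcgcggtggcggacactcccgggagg
Tie1 (chr4:118489800-118490099, minus strand): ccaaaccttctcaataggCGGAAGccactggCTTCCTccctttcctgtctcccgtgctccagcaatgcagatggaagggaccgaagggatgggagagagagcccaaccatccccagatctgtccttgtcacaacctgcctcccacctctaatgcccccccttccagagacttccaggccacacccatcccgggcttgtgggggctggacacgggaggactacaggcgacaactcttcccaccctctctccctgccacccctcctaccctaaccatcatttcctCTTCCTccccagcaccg

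Positions are those of the first base as printed, counted from the transcription start. In the Flt1 window both matches lay on the gene's strand, at −129 and −53. In the Eng window 1 match lay at −6 on the gene's strand and the other at −52 on the opposite strand. Cd34 had 1 match, at −142, and Tie1 had matches at −232, −219 and 34. A match is only a run of letters, and no binding was measured.

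Each value is a linear intensity that the authors summarised with the robust multi-array average (RMA). Array medians lay between 145.9 and 151.2, and a control set of 5000 random probes read between 42.8 and 52.3. An intensity of 100 was taken as the lower edge of the measured range. The authors' value table of 20620 targets keeps that limit on every array. Counts of measured genes take in every listed gene that was fitted, whatever its intensity. The brighter target of Men1 read 6985 and 6222 on scramble siRNA, against 2764 and 4109 on Men1 siRNA, with a log2 change of −0.97 ± 0.35 (SE, n = 2). This did not pass in limma (adjusted p = 0.314), and its other target had −0.19. Every SE given here is the moderated SE of limma. It draws on the spread of all genes or targets as well as on the arrays of the gene itself. Of the markers of the labelled cell type, Th, the rate-limiting enzyme of catecholamine synthesis, read 95.0 to 141.6. The neuronal tubulin gene Tubb3, named after its values were seen, read 34400 to 40660. Hand2 and Dbh were not analysed here.

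All 9 endothelial genes were lower with Men1 siRNA at their brightest target, with both Men1 siRNA arrays below both scramble siRNA arrays. Over all genes, 21.7% showed that order. For 8 of the 9 the log2 change was −1 or lower, against 8.29% of all genes, and their median was −2.02 against 0.06. In limma 3 of the 9 (Eng, Emcn and Cd34) had an adjusted p under 0.05, against 0.389% of all genes. Nothing is read from these shares, since the list was chosen on this comparison. Leaving out any single array left 0 of the 24171 genes past the threshold in limma, while 2105 to 3357 genes had an unadjusted p under 0.05. On bulk RNA, fewer cells of a type and less RNA per cell cannot be told apart.

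**Figure D1:**
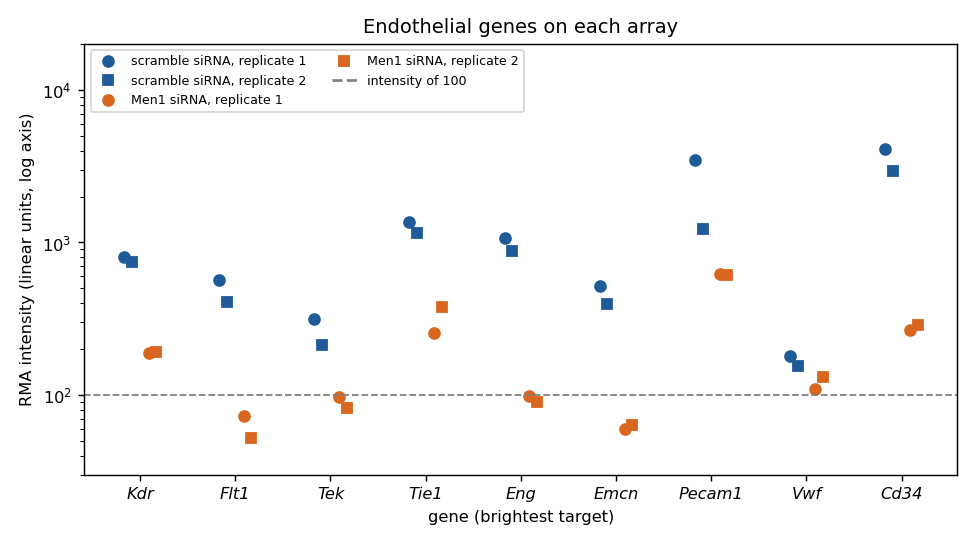
RMA intensity (log axis) of the brightest target of each of the 9 genes on each array, circles for replicate 1 and squares for replicate 2, with a dashed line at 100. In every gene both Men1 siRNA points lie below both scramble siRNA points, and those of Flt1, Tek, Eng and Emcn lie under 100.

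Among the VEGF receptors, Kdr encodes VEGFR2, the main signalling receptor of endothelial cells. Its brighter target (chromosome 5, 76329298 to 76374453 on MM9) read 799.4 and 742.5 on scramble siRNA, against 189.0 and 192.3 on Men1 siRNA. The arrays of each group lay close together and the groups did not overlap. The Men1 siRNA level was 0.247 times the scramble siRNA level, and the log2 change was −2.02 ± 0.30 (SE, n = 2). The other Kdr target covers a shorter span (76357268 to 76374453). It read 121.7 and 69.6 against 92.4 and 62.0, so its groups overlapped, near background.

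Flt1 encodes VEGFR1, which binds VEGF tightly and also exists as a soluble form. Its brighter target (chromosome 5, 148449645 to 148537564) read 563.5 and 407.2 on scramble siRNA, against 73.3 and 52.0 on Men1 siRNA. Both Men1 siRNA arrays were under 100, so the fold is a bound, at least 4.79-fold lower. The second target of Flt1 read 112.7 and 117.2 against 48.6 and 50.5, at least 1.15-fold lower. Both targets thus had the same order of arrays, the second much closer to background.

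The Tie receptors differed in brightness but not in direction. Tek, which encodes the angiopoietin receptor Tie2, has 1 target (chromosome 4, 94405985 to 94541628). It read 314.6 and 211.2 on scramble siRNA, against 96.8 and 82.1 on Men1 siRNA, at least 2.58-fold lower. Both Men1 siRNA values lie just under 100. Tie1 encodes an orphan partner of Tie2. Its brighter target (chromosome 4, 118143795 to 118162376) read 1372 and 1151 against 255.6 and 377.1, a log2 change of −2.02 ± 0.35 (SE, n = 2). Its dim target read 33.4 and 153.8 on scramble siRNA, against 58.5 and 30.6 on Men1 siRNA, and the groups overlapped. The log2 changes of Kdr and Tie1 at the bright targets, −2.02 each, lay within their SEs of each other.

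Eng (chromosome 2, 32502212 to 32537642) read 1077 and 877.0 on scramble siRNA, against 99.3 and 90.2 on Men1 siRNA at its bright target. It was at least 9.72-fold lower, and both low values lay at the edge of the measured range. The other Eng target was under 100 on all 4 arrays (47.6, 58.1, 34.1 and 43.1) and gives no fold.

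Among the surface markers, Cd34 encodes a sialomucin of endothelial cells and blood progenitors. Its brightest target (chromosome 1, 196765014 to 196787486) read 4099 and 2958 on scramble siRNA, against 266.1 and 286.6 on Men1 siRNA. The log2 change was −3.66 ± 0.34 (SE, n = 2), which 0.356% of all genes reached or exceeded on the low side. The second target read 3065 and 2010 against 161.1 and 405.2. The third read 1659 and 1838 against 67.0 and 46.9, at least 17.5-fold lower. All 3 targets of Cd34 separated the groups, and the lowest of the 6 scramble siRNA readings was 1659.

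Emcn encodes endomucin, a sialomucin of veins and capillaries. At its bright target (chromosome 3, 137004080 to 137094033) it read 515.4 and 392.2 on scramble siRNA, against 59.9 and 63.7 on Men1 siRNA, at least 4.5-fold lower. Its second target read 135.1, 37.4, 59.6 and 39.5 on the arrays in the same order, and the groups overlapped.

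Pecam1 encodes CD31, an adhesion molecule of endothelial junctions that platelets and leukocytes also carry. Its brightest target (chromosome 11, 106515531 to 106576595) read 3481 and 1217 on scramble siRNA, against 621.7 and 610.0 on Men1 siRNA. The scramble siRNA arrays differed more here than for any of the other 8 genes, and the log2 change was −1.74 ± 0.54 (SE, n = 2). Without scramble siRNA replicate 1 it was −0.98. The second target, almost the same span, read 2213 and 1045 against 225.9 and 231.7, a log2 change of −2.73 ± 0.45. The third read 212.1 and 231.7 against 81.2 and 101.1. No array of one group crossed into the other at any of the 3 targets.

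Vwf encodes von Willebrand factor, a clotting protein stored in endothelial cells and platelets, and it stood apart from the other 8. The brightest of its 5 targets (chromosome 6, 125553567 to 125593431) read 179.6 and 155.4 on scramble siRNA, against 108.8 and 130.5 on Men1 siRNA. Its scramble siRNA mean of 167.5 was the lowest of the 9 genes and not far above 100, whereas the next lowest, Tek, had 262.9. The log2 change was −0.49 ± 0.32 (SE, n = 2), and 19.8% of all genes were as low or lower. The second target read 125.4 and 107.5 against 112.7 and 101.3. Of the other 3 targets, which lay between 42.2 and 137.1 on the 4 arrays, the log2 changes were 0.29, 0.28 and 0.12. As the mean of its 5 targets Vwf had a log2 change of 0.02, so its sign depends on the target read.

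Over all 22 targets of the 9 genes, 15 had both Men1 siRNA arrays below both scramble siRNA arrays, against 21.3% of all targets. Of the 15 targets with both scramble siRNA arrays at or over 100, 14 showed that order, and the exception was the second target of Vwf. That filter uses the scramble siRNA arrays alone, which favours this order, so nothing is read from the count. For 6 of these 15 both Men1 siRNA arrays were under 100. Targets that overlapped were those near background in both groups. A gene with several targets is still 1 gene read from the same RNA, and its targets are not replicates.

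**Figure D2:**
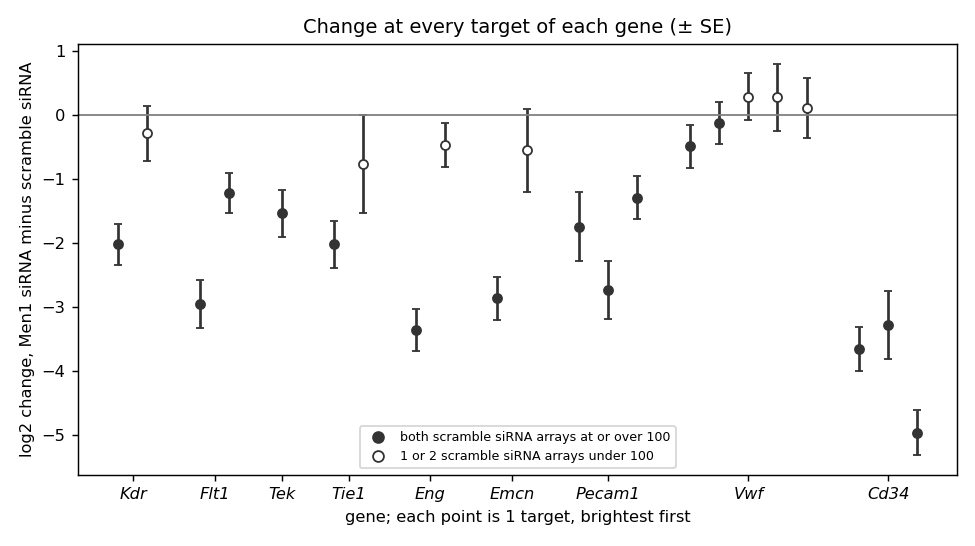
Log2 change (Men1 siRNA minus scramble siRNA, ± SE) at each of the 22 targets, brightest first within a gene; filled points had both scramble siRNA arrays at or over 100. Filled points of the 8 genes other than Vwf lie between −1.22 and −4.96, whereas the 5 Vwf targets lie between −0.49 and 0.29. The filter for filled points uses the scramble siRNA arrays alone, which favours lower Men1 siRNA values.

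The 9 genes also shared an order within the scramble siRNA group: replicate 1 read higher than replicate 2 for all 9, against 44.6% of all genes. Their summed intensity was 12400 and 8112 on scramble siRNA replicates 1 and 2, and 1770 and 1884 on the Men1 siRNA arrays. Between the Men1 siRNA arrays the order was mixed, with replicate 1 higher for 4 of the 9. The order within the scramble siRNA group was not particular to these genes. Of the lists described below, the epithelial sum was 35460 and 21900 on scramble siRNA replicates 1 and 2, and the leukocyte sum 21870 and 16730. Sums of the VEGF ligand, endoglin partner, pericyte and smooth muscle, and neuroblastoma lists had the opposite order.

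Over the 4 arrays, the genes whose centred log2 values lay nearest to those of Kdr were Ror2, Dap, Mylk, Ccdc163 and Abhd14b, among 15722 genes compared. Their Euclidean distances were 0.035 to 0.11 log2 units. Within the 9 endothelial genes described above, Tie1 was the closest to Kdr, at 0.393 and rank 87. Cd34 was the farthest, at 1.66 and rank 3724. Genes of the lists below were not ranked here. With 4 arrays this measure mostly follows the size of the difference between the groups.

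Other endothelial genes were grouped in 5 lists by function, 107 genes of which 99 were measured. The lists were written with earlier results of these data known, so their counts and medians are given as a description. In limma 3 fell and 0 rose over all genes tested, against 0.352% and 0.0372% of all genes in those directions. At an unadjusted p under 0.05 in limma, 34 were lower and 10 higher, where 7.74% of all genes were lower and 6.47% higher. The same shares over all genes stand beside the counts of each list below. The median log2 change of the 99 was −0.63, against 0.06 for all genes. With any 1 array left out none of the 99 passed.

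Ligands and co-receptors of the VEGF receptors showed no shared direction. Of 7 measured, 0 passed in limma (1 lower and 2 higher at an unadjusted p under 0.05), and their median log2 change was −0.42. Vegfa, the main ligand of Kdr and Flt1, read 1661 and 1422 on scramble siRNA, against 844.3 and 815.2 on Men1 siRNA, with a log2 change of −0.89 ± 0.31 (limma adjusted p = 0.302). Vegfb, a ligand of Flt1, had 0.83 ± 0.33 and the co-receptor gene Nrp2 0.91 ± 0.35. The adjusted p-values of limma were 0.346 and 0.34. Pgf, a ligand of Flt1, and the co-receptor gene Nrp1 had −0.49 ± 0.41 and 0.28 ± 0.35, with overlapping groups. Another Nrp1 target read 173.3 and 202.1 against 260.3 and 322.1, without overlap, a log2 change of 0.63. The remaining Nrp1 targets were under 100 on all arrays. Other targets at or over 100 on all arrays had −1.22 and −1.12 for Vegfa, 0.30 for Vegfb and 1.26 for Nrp2. Vegfc, a ligand of VEGFR3, was under 100 on all 4 arrays.

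Among 6 genes around the Tie receptors 0 passed in limma, with 3 lower at an unadjusted p under 0.05. Angpt1, the activating ligand of Tek, read 404.7 and 152.3 against 313.4 and 222.2, and its groups overlapped. Angpt2, a ligand that endothelial cells release, was at least 1.59-fold lower (limma adjusted p = 0.217). Angptl1 was at least 1.16-fold lower (its other target was under 100 on all 4 arrays and gives no fold), and Ptprb, the phosphatase that restrains Tie2, at least 1.04-fold. For these 2 genes 1 of the 2 scramble siRNA arrays was under 100. Limma's adjusted p was 0.233 for Angptl1 and 0.275 for Ptprb.

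Of 18 genes that act with endoglin 0 passed in limma (1 lower and 3 higher at an unadjusted p under 0.05), and the median log2 change was −0.15. Acvrl1, the endothelial receptor kinase that endoglin serves, read 468.5 and 520.8 on scramble siRNA, against 96.4 and 53.9 on Men1 siRNA. It was at least 4.94-fold lower (limma adjusted p = 0.0761), and its other 2 targets, also under 100 on Men1 siRNA, give bounds of at least 3.55-fold and 4.47-fold lower. Smad9, a transcription factor of BMP signalling, was at least 1.35-fold higher, with 1 Men1 siRNA array under 100, and the activin receptor gene Acvr2a had 1.09 ± 0.34. The adjusted p-values of limma were 0.22 and 0.27. Of the 18 genes, 12 had negative and 6 positive changes.

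Of 22 measured endothelial transcription factor genes 3 fell and 0 rose in limma (0.352% and 0.0372% of all genes), and their median log2 change was −0.99. At an unadjusted p under 0.05, 10 were lower and 3 higher (7.74% and 6.47% of all genes). Sox17 read 5580 and 2665 on scramble siRNA, against 141.7 and 110.4 on Men1 siRNA, and fell by 4.95 ± 0.45 on the log2 scale (limma adjusted p = 0.0347). Of its other 4 targets, 2 were under 100 on Men1 siRNA, which gives bounds of at least 1.90-fold and 31.6-fold lower. The remaining 2, each with 1 Men1 siRNA array under 100, had −3.83 and −5.06. Sox18, its relative in vessel development, was at least 2.72-fold lower (limma adjusted p = 0.0452). Gata2, a zinc finger factor of endothelial and blood cells, was at least 45.5-fold lower (limma adjusted p = 0.0281). Sox17 and Gata2 are also known from epithelia and other tissues. The 3 higher genes, named after their values were seen, were Lyl1, Tal1 and Prox1, with log2 changes of 1.44 ± 0.33, 1.13 ± 0.43 and 1.12 ± 0.44 (limma adjusted p = 0.178, 0.328 and 0.345). Lyl1 and Tal1 are blood and endothelial factors, and Prox1 is a factor of lymphatic endothelium. The measured ETS factor genes of this list were named after their values were seen, because the windows above were searched for ETS letters. Fli1, an ETS factor gene also on the list, was not analysed here. Erg read 165.7 and 86.8 against 42.1 and 97.5, and its groups overlapped. Elk3 read 4209 and 2183 against 730.9 and 942.3, without overlap (limma adjusted p = 0.174). Ets2 read 515.1 and 451.2 against 341.8 and 147.6, also without overlap (limma adjusted p = 0.379). The groups of Ets1 overlapped, and Etv2 was under 100 on every array.

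Among 46 other junction, surface and secreted genes of endothelial cells 0 passed in limma, with 19 lower and 2 higher at an unadjusted p under 0.05 (7.74% and 6.47% of all genes). Their median log2 change was −0.89. For 28 of them both Men1 siRNA arrays were below both scramble siRNA arrays, against 21.7% of all genes. Cdh5, which encodes VE-cadherin of endothelial junctions, read 2030 and 1416 on scramble siRNA, against 229.0 and 153.5 on Men1 siRNA. Its log2 change was −3.18 ± 0.38 (limma adjusted p = 0.0521). Mcam had −2.41 ± 0.37, the thrombomodulin gene Thbd −2.24 ± 0.35, the guidance receptor gene Robo4 −2.02 ± 0.33 with 1 Men1 siRNA array under 100, and Egfl7, a secreted factor gene, −1.64 ± 0.32. The orphan receptor gene Adgrl4 was lower by a factor of at least 1.26. Limma's adjusted p for these 5 lay between 0.0854 and 0.13. The blood-brain barrier claudin gene Cldn5, named after its values were seen, read 403.1 and 293.1 against 364.3 and 220.9. Its groups overlapped.

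**Figure D3:**
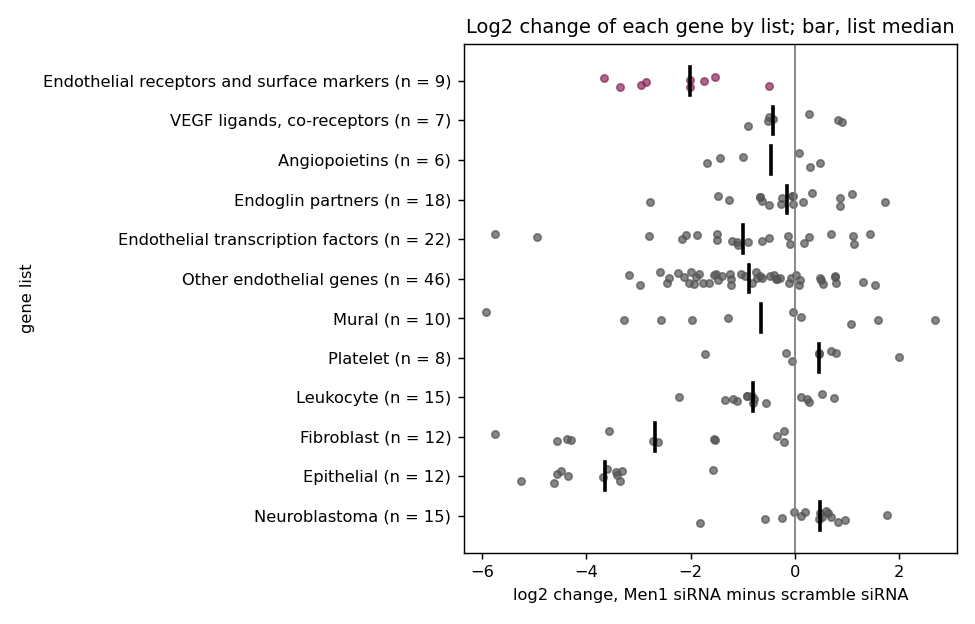
Log2 change (Men1 siRNA minus scramble siRNA) of each gene by list, with the list median as a bar; n is the number of measured genes. The 9 endothelial receptors and markers have a median of −2.02, the epithelial list −3.64, the fibroblast list −2.68 and the neuroblastoma list 0.49.

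Markers of other cell types moved on the same arrays. Their lists too were written with earlier results of these data known, so the counts are a description. All 12 epithelial markers were lower with non-overlapping groups, an order that 21.7% of all genes showed. In limma 5 of them fell, against 0.352% of all genes, and their median log2 change was −3.64. The keratin genes Krt8 and Krt18 and the E-cadherin gene Cdh1 fell, with log2 changes of −3.67 ± 0.32, −4.49 ± 0.43 and −4.56 ± 0.42 (limma adjusted p = 0.0346, 0.0364 and 0.0347). Cdh1 had 1 Men1 siRNA array under 100. The summed intensity of all 12 epithelial markers was 35460 and 21900 on scramble siRNA, against 1556 and 2664 on Men1 siRNA. All 12 fibroblast markers had negative changes, 4 fell in limma and the median was −2.68, with sums of 75580 and 67510 against 15690 and 18440. Of these the collagen genes Col6a2, Col1a1 and Col6a1 fell, with log2 changes of −5.75 ± 0.34, −4.37 ± 0.34 and −4.57 ± 0.39 (limma adjusted p = 0.0275, 0.0327 and 0.0346). The other 2 targets of Col6a2 had −1.01 and −2.04. No epithelial or fibroblast marker was under 100 on all arrays. Their part in the values of the endothelial genes was not tested.

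Of 10 measured pericyte and smooth muscle markers, only Rgs5, a pericyte gene, passed in limma, at least 5.02-fold lower (adjusted p = 0.0403). At an unadjusted p under 0.05, 4 were lower and 2 higher, and 4 of the 10 had positive changes. Des was at least 4.36-fold lower, and Anpep had −5.92 ± 0.97 with 65.9 and 557.2 on the Men1 siRNA arrays. Limma's adjusted p was 0.0639 for Des and 0.0938 for Anpep. The smooth muscle genes Tagln and Acta2, named after their values were seen, had the opposite sign, with log2 changes of 2.69 ± 0.45 and 1.61 ± 0.42 (limma adjusted p = 0.0979 and 0.21). Acta2 read 2962 and 5405 on scramble siRNA, against 10470 and 14210 on Men1 siRNA. The sums were 17170 and 20140 against 12990 and 17330, with a median log2 change of −0.66; 1 marker was under 100 on all arrays. Pericytes wrap capillaries, and these genes are also known from other stromal cells.

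Blood cells carry Pecam1, Cd34 and Vwf too. Of 8 measured platelet markers 0 passed in limma (1 lower and 1 higher at an unadjusted p under 0.05), and the median log2 change was 0.47. Their sums were 1629 and 1057 against 1252 and 1412, and 1 was under 100 on all arrays. Ppbp was at least 1.07-fold higher and Gp9 at least 1.22-fold higher. In contrast, the integrin gene Itgb3 had −1.73 ± 0.52, with 1 Men1 siRNA array under 100. The adjusted p-values of limma were 0.0852, 0.448 and 0.256. Of 15 leukocyte and progenitor markers 0 passed in limma (4 lower and 0 higher at an unadjusted p under 0.05), with a median of −0.81 and sums of 21870 and 16730 against 9573 and 11290. None was under 100 on all arrays. Cd14 had −2.23 ± 0.31, Cd68 −1.19 ± 0.33 and Laptm5 −1.10 ± 0.36, with 0.15 and −1.47 at the other targets of Laptm5. Limma's adjusted p was 0.0725, 0.228 and 0.28.

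Of the markers of the labelled neuroblastoma cells, 11 of 15 had positive changes. In all 0 passed in limma (1 lower and 2 higher at an unadjusted p under 0.05), the median log2 change was 0.49, and 1 was under 100 on all arrays. Ret was at least 2.27-fold higher and the synaptic gene Snap25 had 0.82 ± 0.31. Gata3 had −1.83 ± 0.40, with 1 Men1 siRNA array under 100. Limma's adjusted p was 0.132, 0.331 and 0.162. The sums of all 15 markers were 62180 and 71940 against 83320 and 87820.

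**Figure D4:**
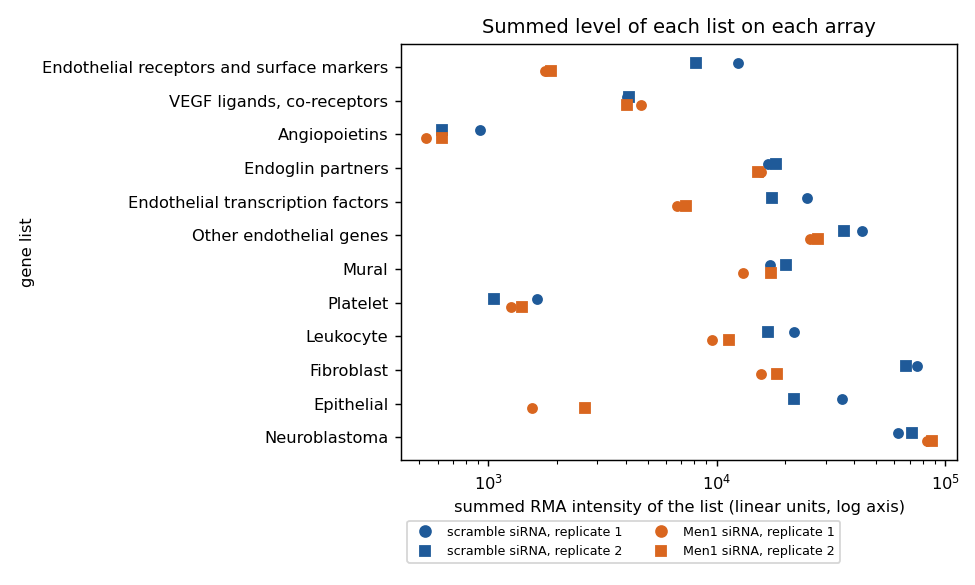
Summed RMA intensity of each list on each array (log axis), circles for replicate 1 and squares for replicate 2. The sum of the 9 endothelial genes is 12400 and 8112 for scramble siRNA, against 1770 and 1884 for Men1 siRNA, while the neuroblastoma sum is lowest on scramble siRNA replicate 1 at 62180.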

How the data were processed

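Single-colour arrays (n = 4) were read from the deposited per-array files. Per the file headers, the deposited values are RMA intensities on a linear scale, 1 per target, with targets placed on MM9; no header or label states the background correction. The labels name both Agilent and NimbleGen; the file format is NimbleGen's. Values were taken to log2 without further normalization. Each gene was read at its brightest target (mean log2 over the arrays), and symbols were updated by gene ID (21583 of 24204 matched; GRCm38.p6). Differences (Men1 siRNA minus scramble siRNA) were fitted with lmFit and eBayes of limma 3.58.1 (R 4.3.3) over 24171 genes, with group as the only term, two-sided p-values and Benjamini-Hochberg adjustment over all genes (threshold 0.05). Each SE is the moderated SE of this fit, or of the fit over all targets where single targets are given. It is not the scatter of the arrays alone. With 2 arrays a group, an exact permutation test gives no p under 0.33. The code was tested on simulated data.

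Where both arrays of the dimmer group were under 100, the fold is "at least": the brighter group's mean log2 value against the higher of 100 and the dimmer array's own value. Targets were fitted together for values of single targets. The members and lists were chosen with earlier results of these data known. Named genes are every member with every target, Men1, direct ligands and partners, the 3 genes of smallest p per list (6 for other endothelial genes, and Cdh5), 4 neuroblastoma markers (1 is not reported here) and the 5 genes nearest to Kdr. The number of arrays limits precision. Alternatives tried were a block for the replicate number, leaving out single arrays, quantile and cyclic loess normalization, the authors' value table, no dim genes, the mean of targets, targets alone, a floor at 100, a pseudocount of 32 and a variance prior following intensity. A crossed block was added after the data were seen. Same-numbered arrays deviated with r = −0.167 across 44170 targets.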

Additional observations from a re-analysis of the deposited data

How the results depend on the processing

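The median log2 change of the 9 endothelial genes, −2.02, lay between −2.50 and −1.96 with 1 array left out, was −1.71 with the mean of all targets and −1.41 over all 22 targets, and differed by less than the spread between arrays under the other settings. Log2 changes of 8 of the 9 genes were negative under every setting run; Vwf had 0.017 as the mean of its targets. The value table holds 5 of the 9 genes and exchanges the scramble siRNA replicates, which leaves group differences as they are. Of the 94 genes past the threshold, and of 3 endothelial genes and 3 other endothelial genes among them, 0, 0 and 0 passed with any 1 array left out or with crossed replicate numbers as a block (3980 genes at an unadjusted p under 0.05 in limma with the crossed block). With the replicate number as a block the counts were 69, 1 and 2; the labels do not say that a number marks a shared culture. A floor at 100 gave 8, 0 and 0, with 3255 genes at an unadjusted p under 0.05. Leaving out dim genes gave 56, 2 and 2, and 418, 3 and 13 genes passed in the value table. A pseudocount of 32 gave 252, 5 and 7, a variance prior that follows intensity 711, 6 and 14, the mean of targets 90, 1 and 5, and every target alone 150, 4 and 10. The causes were not tested. Nothing is read from the counts among the 9 endothelial genes, since the list was chosen on this comparison. Signs of some small log2 changes turned with 1 array left out, from −0.029 to 0.412 for Th, −0.03 to 0.594 for Nrp1 and −0.617 to 0.793 for Angpt1. Signal near background limits the folds of Flt1, Tek, Eng and Emcn to bounds.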
